A study of Homo sapiens with 4 samples.

Results

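The genes described are the protein-coding genes of the integrin alpha and beta subunits and of the laminin alpha, beta and gamma chains. They were taken by gene symbol from GENCODE release 29 and matched by Ensembl gene identifier, which gave 38 of the 19951 protein-coding genes and of the 58735 genes counted: 18 integrin alpha, 8 integrin beta, 5 laminin alpha, 4 laminin beta and 3 laminin gamma genes. The rule uses names and no measured value, but the set was chosen with earlier results of these data known. The RNA came from A549, a human lung adenocarcinoma cell line grown with fetal bovine serum. Both groups were infected with a lentivirus and are labelled day 2. The shControl group received a control hairpin and carries the genotype label WT, and the shRALY group received a hairpin against RALY, an hnRNP family protein that binds RNA, and carries the genotype label RALY knockdown. Each group had 2 libraries of poly(A)-selected RNA, and the comparison asked how gene expression differed after depletion of RALY. The labels state neither the number of hairpin sequences against RALY nor a rescue, so an effect of the hairpin other than on RALY cannot be told apart from that of RALY depletion.

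Integrins are surface receptors built of 1 alpha and 1 beta subunit that attach cells to the extracellular matrix or to other cells, and they signal to the cytoskeleton through talin, kindlin and focal adhesion kinase. The alpha subunit largely sets the ligand: some pairs bind collagens, some laminins, some the arginine-glycine-aspartate (RGD) motif of fibronectin and vitronectin, and a leukocyte set binds counter-receptors on other cells. Laminins are secreted trimers of an alpha, a beta and a gamma chain that assemble into basement membranes. In lung epithelium, laminin-332, which contains LAMA3 and LAMB3, anchors cells through the integrin of ITGA6 and ITGB4, and trimers that contain LAMA5 are widespread.

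The deposited counts summed to between 16745818 and 18632787 per library, and levels are given as CPM, counts scaled to library totals with TMM factors. RALY itself stood at 123 and 133 CPM in shControl and at 40.9 and 41.5 CPM in shRALY. It fell by 1.64 on the log2 scale (SE 0.11), with an adjusted p of 5.85e-11 in edgeR's quasi-likelihood test after Benjamini-Hochberg adjustment. The labels call the cells alveolar basal epithelial. The epithelial keratins KRT8 and KRT18 were abundant, at 3493 to 3954 CPM and 1595 to 1703 CPM, and EPCAM, an epithelial adhesion molecule, was low, at 2.29 to 3.54 CPM. Of 4 basal markers, KRT5 and KRT14 had mean levels of at most 0.21 CPM in either group. KRT15 had means of 1.29 CPM in shControl and 3.71 CPM in shRALY, and TP63 had means of 3.32 and 1.47 CPM. The values of KRT8, KRT18 and KRT14 are uncertain, since 22.1%, 21.7% and 23.7% of their 50-base words occur in another gene. Of 5 alveolar type 2 markers only ABCA3, at 72.2 to 103 CPM, reached the test. The labels do not say that the libraries of a group came from separate cultures, so every p-value measures the spread between these libraries, which may be technical. In bulk RNA, fewer cells of a kind and less RNA per cell cannot be told apart.

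Integrin and laminin transcripts took a larger share of the shRALY libraries, and the rises were spread over collagen, laminin and RGD receptors and over all 3 laminin chain types. The 38 genes together held 0.582% and 0.621% of all shControl counts and 0.776% and 0.839% of all shRALY counts. Of the 38 genes, 32 had enough counts for the test, and 16 of them rose in shRALY, 3 fell and 13 did not pass an adjusted p of 0.05. Among all 15912 genes tested, 41% were called in either direction, 20.6% higher and 20.4% lower. The median log2 fold change was 0.63 over the 32 genes, against -0.01 over all genes tested. The CPM of the groups did not overlap for 27 of the 32, against 69.7% of all genes tested. Laminins rose in 7 of 11 tested genes and fell in 1, and integrins rose in 9 of 21 and fell in 2. Among the 17 genes that averaged 20 CPM or more in a group, 12 rose, 2 fell and 3 did not pass. The share called among all genes at that level was not computed, so this count has no background beside it. ITGAE, among the falls, reached 20 CPM in shControl alone (mean 32.8 CPM, against 18.8 CPM in shRALY). Among integrins, 4 rises exceeded 2-fold: ITGA2, ITGA5, ITGAX and ITGB3.

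**Figure D1:**
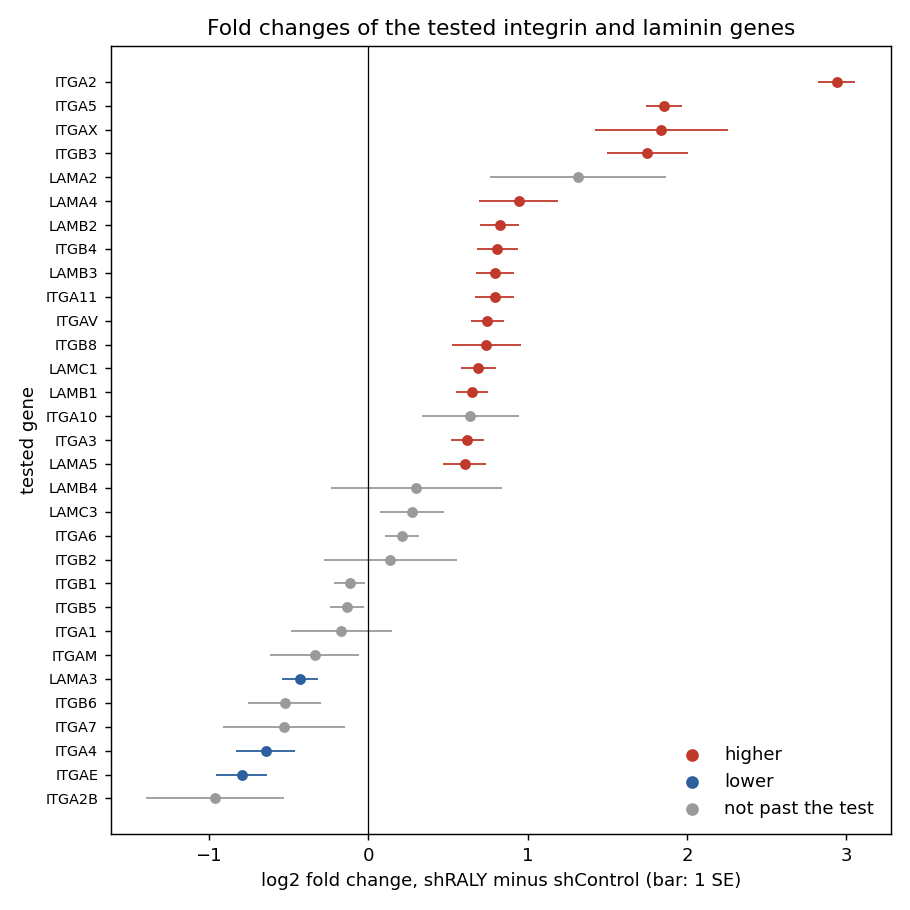
Log2 fold change of shRALY against shControl for tested integrin and laminin genes (x axis; y axis, gene), from edgeR, with bars of 1 SE. ITGA2 lies farthest to the right at 2.94, and the 3 genes past the test on the lower side are LAMA3, ITGA4 and ITGAE.

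The collagen receptors are the alpha subunits ITGA1, ITGA2, ITGA10 and ITGA11, all of which pair with ITGB1. ITGA2, which with ITGB1 forms the collagen and laminin receptor of epithelium and platelets, had the largest change among the tested members. It stood at 58.1 and 56.1 CPM in the shControl libraries and at 406 and 470 CPM in the shRALY libraries. The groups were far apart, and ITGA2 rose 7.67-fold (log2 2.94, SE 0.12; edgeR adjusted p = 3.58e-15). ITGA11, a receptor for fibrillar collagen, stood at 35.6 and 43.7 CPM in shControl and 67.0 and 70.4 CPM in shRALY. It rose 1.73-fold, with no overlap between the groups (SE 0.12 on the log2 scale; edgeR adjusted p = 1.79e-05). ITGA1 lies 30.1 kb upstream of ITGA2 on the same strand of chromosome 5. It was scarce in every library, at 2.26 to 3.01 CPM, with overlapping groups (log2 -0.17, SE 0.32; edgeR adjusted p = 0.714). ITGA10, a receptor of cartilage cells, gave 2.07 and 3.93 CPM in shControl and 5.28 and 4.04 CPM in shRALY and did not pass (log2 0.64; edgeR adjusted p = 0.0952), though it passed without shControl replicate 2 (edgeR adjusted p = 0.00606 at log2 1.19), with a replicate block (edgeR adjusted p = 0.0401) and with an offset for length and GC content (edgeR adjusted p = 0.0489).

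ITGA2 (GRCh38 chr5:52989326-53094779, plus strand) changed most, so the stretch just before its annotated first exon is shown, from 125 to 27 bases before the start that RefSeq lists (GRCh38.p14, chr5:52989227-52989325, plus strand). Capitals mark GGGCGG, the core of the SP1 motif.
ITGA2: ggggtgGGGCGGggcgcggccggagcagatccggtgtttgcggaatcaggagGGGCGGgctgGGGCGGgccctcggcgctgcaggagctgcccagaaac
The window of 250 bases before the start held 4 such matches for ITGA2, of which 3 fall in the stretch shown. Read on both strands, GGGCGG occurred in 8 of the 11 members with a rise and a listed promoter, and in 56% of all 15843 protein-coding promoters of the same length. It also occurred in 3 of 10 that did not pass, ITGAM, ITGB1 and ITGB5, and in 1 of 3 that fell, LAMA3. A match is a description of letters, not a bound site.

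Of the laminin receptor subunits ITGA3, ITGA6, ITGA7 and ITGB4, the first and the last rose and the others did not pass the test. ITGA3, which pairs with ITGB1 and binds laminin-332 and laminin-511, was the most abundant alpha subunit per kb of exon. In CPM it stood at 725 and 883 CPM in shControl and at 1172 and 1305 CPM in shRALY, a 1.54-fold rise without overlap (SE 0.11 on the log2 scale; edgeR adjusted p = 5.16e-05). ITGB4, the subunit that links hemidesmosomes to keratin filaments, stood at 102 and 135 CPM in shControl and at 189 and 225 CPM in shRALY. All shRALY values for ITGB4 lay above both control values, and the gene rose 1.75-fold (edgeR adjusted p = 1.80e-05). ITGA6, the only alpha subunit known to pair with ITGB4, stood at 118 and 110 CPM in shControl and at 128 and 136 CPM in shRALY. Its log2 fold change was 0.21 (SE 0.11), and it did not pass (edgeR adjusted p = 0.118). ITGA6 did pass without shControl replicate 1 (edgeR adjusted p = 0.0147 at log2 0.26) and with the offset for length and GC content (log2 0.24; edgeR adjusted p = 0.00422). The ratio of ITGA6 to ITGB4 counts per kb of exon within a library was 1.20 and 0.845 in shControl and 0.701 and 0.627 in shRALY. ITGA7, a subunit of muscle, had at most 2.18 CPM in any library and did not pass (log2 -0.53; edgeR adjusted p = 0.289).

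Of the 8 RGD receptor subunits, 7 were tested, 4 rose and none fell. ITGA5, which with ITGB1 forms the main fibronectin receptor, gave 62.9 and 73.2 CPM in shControl and 238 and 254 CPM in shRALY. Its shRALY values were all above 3 times the control values, and it rose by 1.86 on the log2 scale (SE 0.11; edgeR adjusted p = 6.22e-12). ITGAV pairs with ITGB1 and with ITGB3, ITGB5, ITGB6 and ITGB8. It stood at 435 and 369 CPM in shControl and at 662 and 690 CPM in shRALY, and it rose 1.68-fold (edgeR adjusted p = 4.10e-06). Of these 4 last partners, ITGB3 and ITGB8 rose and the others did not pass. ITGB3, which joins ITGAV in the vitronectin receptor, was low, at 2.01 and 2.88 CPM in shControl and 8.43 and 8.01 CPM in shRALY. It rose 3.37-fold (SE 0.25 on the log2 scale; edgeR adjusted p = 7.06e-06). The ITGB3 value is uncertain, because a readthrough gene on the same strand covers 51.6% of its exonic bases. ITGB8, which with ITGAV activates latent TGF-beta, stood at 6.81 and 5.11 CPM in shControl and 8.76 and 11.3 CPM in shRALY. It rose 1.67-fold (edgeR adjusted p = 0.00893), and leaving out shRALY replicate 2 ended the call (edgeR adjusted p = 0.159 at log2 0.56).

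ITGB5 and ITGB6 did not pass the test. ITGB5, a vitronectin receptor subunit and the most abundant of these 4 per kb of exon, gave 399 and 484 CPM in shControl and 393 and 413 CPM in shRALY. These groups overlapped, and the log2 fold change was -0.13 (SE 0.11; edgeR adjusted p = 0.356). Leaving out shControl replicate 1 gave a call on the lower side (log2 -0.27; edgeR adjusted p = 0.00763), and leaving out shControl replicate 2 turned the sign (log2 0.03). ITGB6, an epithelial subunit that also activates latent TGF-beta, stood at 10.2 and 6.75 CPM in shControl and at 5.77 and 6.05 CPM in shRALY. It did not pass (log2 -0.52, SE 0.23; edgeR adjusted p = 0.0712), but passed without shControl replicate 2 (edgeR adjusted p = 0.00619 at log2 -0.78), and with library size alone, the replicate block or the offset (edgeR adjusted p between 0.0436 and 0.0458). Another gene on the same strand overlaps 20.6% of ITGB6 exonic bases, so its counts are uncertain. ITGA2B, the platelet fibrinogen receptor subunit, had 0.795 to 3.23 CPM and did not pass (log2 -0.96, SE 0.43; edgeR adjusted p = 0.0821). It passed without shControl replicate 1 (edgeR adjusted p = 0.0120 at log2 -1.36) as well as without replicate 1 of shRALY (edgeR adjusted p = 0.0223 at log2 -1.61). ITGA8, a subunit of kidney and smooth muscle, had no counts in any library, which allows up to 0.161 to 0.179 CPM.

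ITGB1, the chain shared by most of these receptors, had the highest level per kb of exon of all 38 genes in each group: 292 ± 29.6 CPM per kb in shControl and 270 ± 0.72 in shRALY (mean ± SD, n = 2). Its CPM was 1884 and 1632 in shControl and 1625 and 1619 in shRALY. The shRALY values lay just under the lower control, and the difference did not pass (log2 -0.12, SE 0.10; edgeR adjusted p = 0.361). Of the 50-base words of its longest transcript, 15% also occur in another gene. ITGB1 thus spanned 1619 to 1884 CPM over the 4 libraries. Its tested partners did not move together. ITGA2, ITGA3, ITGA5, ITGA11 and ITGAV rose, ITGA4 fell, and ITGA1, ITGA6, ITGA7 and ITGA10 did not pass.

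**Figure D2:**
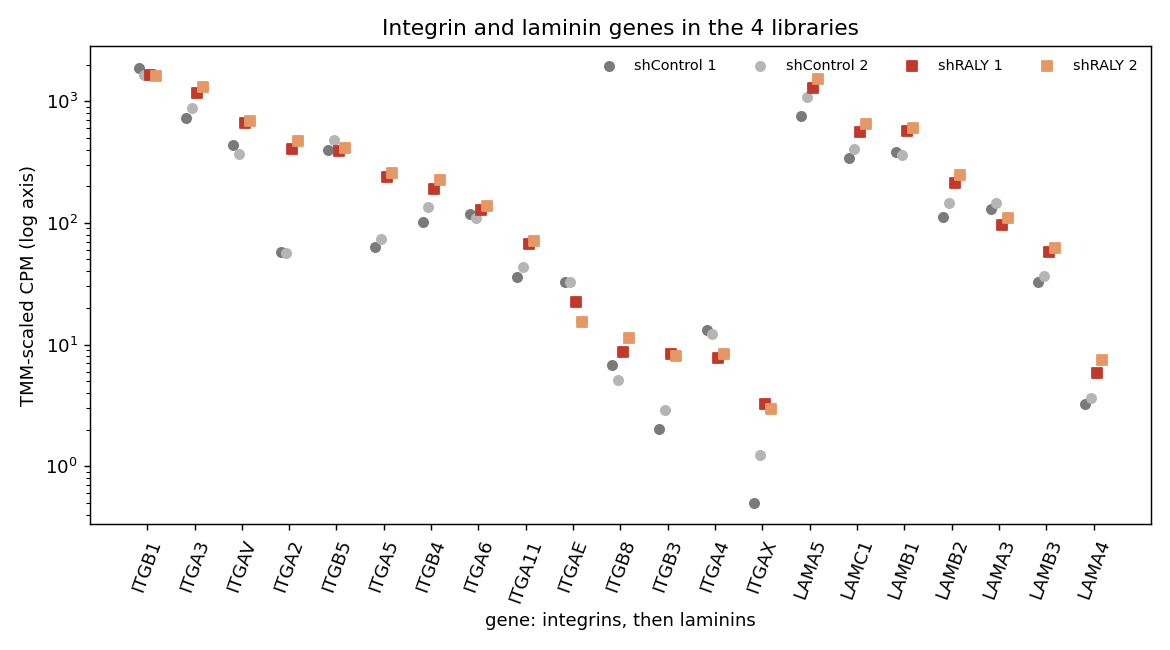
TMM-scaled CPM (y axis, log scale) in each of the 4 libraries for integrin and laminin genes that passed the test or averaged 20 CPM or more in a group (x axis); circles are shControl and squares shRALY. ITGB1 sits at 1619 to 1884 CPM in all libraries, while ITGA2 goes from 56.1 and 58.1 to 406 and 470 CPM.

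The remaining integrins are ITGA4, ITGA9 and those typical of leukocytes. Of these 9 genes 5 were tested, 1 rose and 2 fell. ITGAE, the CD103 subunit that binds E-cadherin, stood at 32.9 and 32.6 CPM in shControl and at 22.4 and 15.3 CPM in shRALY. It fell by 0.79 on the log2 scale (SE 0.16; edgeR adjusted p = 0.000335). The fall of ITGAE lost its call without shRALY replicate 2 (log2 -0.54; edgeR adjusted p = 0.0576), the library with the lower value. ITGA4, whose product binds VCAM1 and fibronectin, stood at 13.1 and 12.2 CPM in shControl and at 7.73 and 8.44 CPM in shRALY. Both shRALY values were below both control values, and the log2 fold change was -0.64 (SE 0.19; edgeR adjusted p = 0.00788). Leaving out shRALY replicate 1 ended that call (edgeR adjusted p = 0.116 at log2 -0.57), and so did DESeq2 (adjusted p = 0.0501).

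ITGAX, the CD11c subunit, had 9 and 21 counts in shControl and 60 and 48 counts in shRALY. This is 0.502 and 1.23 CPM against 3.26 and 2.93 CPM, a rise of 3.58-fold at a low level (log2 1.84, SE 0.42; edgeR adjusted p = 0.00109). The log2 fold change of ITGAX was 1.32 without shControl replicate 1 and 2.62 without shControl replicate 2. ITGAM, the CD11b subunit (2.94 to 3.96 CPM), and ITGB2, the beta subunit of CD11b and CD11c (1.12 to 2.17 CPM), did not pass, at log2 -0.34 and 0.14 (edgeR adjusted p = 0.366 and 0.822). ITGAL, the CD11a subunit, ITGAD, the CD11d subunit, ITGB7, the beta subunit of gut-homing lymphocytes, and ITGA9, a tenascin receptor subunit, had at most 9 counts in any library and were not tested. The ITGB7 value is uncertain, because an opposite-strand gene covers 42.1% of its exonic bases. Leukocyte RNA was looked for with 8 markers. CD3E had no counts, and PTPRC, LCP1, SPI1 and LAPTM5 had mean levels of at most 0.40 CPM in either group, and the 8 markers summed to 9.83 and 12.7 CPM in shControl and to 12.0 and 8.87 CPM in shRALY. The tested markers CD14, a monocyte receptor, and CORO1A, an actin-binding protein of blood cells, did not pass (log2 -0.15 and 0.01; edgeR adjusted p = 0.657 and 0.986). Of 5 platelet markers, 2 had no counts, and the list summed to 4.08 and 6.52 CPM in shControl and to 3.54 and 2.45 CPM in shRALY. Only GP1BA, a platelet receptor chain, was tested, and it fell by 0.85 on the log2 scale (edgeR adjusted p = 0.0325). The GP1BA call was lost with DESeq2 (adjusted p = 0.168), without shControl replicate 2 (edgeR adjusted p = 0.442 at log2 -0.39) and also without replicate 2 of shRALY (edgeR adjusted p = 0.222 at log2 -0.63).

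Among laminin alpha chains, LAMA5 rose and LAMA3 fell. LAMA5, the alpha chain of laminin-511 and laminin-521, was the most abundant laminin gene per kb of exon in both groups, at 64.3 ± 16.5 CPM per kb in shControl and 97.8 ± 12.2 in shRALY (mean ± SD, n = 2). In CPM it stood at 752 and 1086 in shControl and at 1275 and 1521 in shRALY. The shControl libraries thus differed 1.44-fold from each other, and LAMA5 rose 1.52-fold (log2 0.61, SE 0.14; edgeR adjusted p = 0.00168). Without shControl replicate 1 the log2 fold change was 0.36 and without shControl replicate 2 it was 0.91, and the call was lost with DESeq2 (adjusted p = 0.0955). LAMA5 had the highest GC content of the 17 abundant members, 66.4%. Across those 17 genes, the log2 ratio of shControl replicate 2 to replicate 1 went with GC content at Pearson's r = 0.858, while the log2 fold change did so at r = -0.13. These 17 points come from the same 4 libraries and are given as a description, and the part of GC content in the result was not tested beyond the offset, under which LAMA5 kept its call.

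LAMA3 (GRCh38 chr18:23689443-23956222, plus strand) encodes the alpha chain of laminin-332. It stood at 129 and 145 CPM in shControl and at 95.2 and 109 CPM in shRALY. Both shRALY libraries were under both shControl libraries, and LAMA3 fell by 0.43 on the log2 scale (SE 0.11; edgeR adjusted p = 0.00408), and did not pass once shRALY replicate 1 was left out (edgeR adjusted p = 0.231 at log2 -0.33). LAMA4, the alpha chain of laminin-411 in vessel walls, stood at 3.24 and 3.64 CPM in shControl and at 5.88 and 7.40 CPM in shRALY. It rose 1.93-fold (edgeR adjusted p = 0.00378) and lost its call without shRALY replicate 2 (log2 0.78; edgeR adjusted p = 0.0773). All 5 endothelial markers had mean levels of at most 0.31 CPM in either group, and 1 of them, KDR, had no counts. LAMA2, the alpha chain of muscle laminin, had 4 and 21 counts in shControl and 37 and 26 counts in shRALY. It did not pass (log2 1.32, SE 0.55; edgeR adjusted p = 0.0605), but passed without shControl replicate 2 (edgeR adjusted p = 0.00152 at log2 2.99) and, with edgeR adjusted p between 0.0170 and 0.0451, with no filter, with the replicate block, with the offset and with protein-coding genes alone. LAMA1, an alpha chain of the embryo, had at most 2 counts in a library.

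Of the 4 beta chain genes, 3 rose. LAMB1, the beta chain of laminin-511, stood at 382 and 362 CPM in shControl and at 565 and 604 CPM in shRALY. LAMB2, the beta chain of laminin-521, stood at 112 and 146 CPM in shControl and at 211 and 247 CPM in shRALY. LAMB3, the beta chain of laminin-332, stood at 32.9 and 36.3 CPM in shControl and at 58.0 and 62.1 CPM in shRALY. The groups were separate for each of them. The rises were 1.57-fold for LAMB1, 1.77-fold for LAMB2 and 1.74-fold for LAMB3, with log2 SE of 0.10, 0.12 and 0.12 (edgeR adjusted p between 9.77e-06 and 1.48e-05). LAMB4, which lies 20.3 kb from LAMB1 on chromosome 7, was at 0.726 to 1.16 CPM and did not pass (log2 0.30, SE 0.54; edgeR adjusted p = 0.695).

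Gamma chains were read next. LAMC1, the gamma chain of most laminins, stood at 343 and 402 CPM in shControl and at 555 and 648 CPM in shRALY. It rose 1.61-fold (SE 0.11 on the log2 scale; edgeR adjusted p = 2.21e-05). LAMC3, a gamma chain of nervous tissue and other sites, stood at 7.43 and 10.6 CPM in shControl and at 11.0 and 10.8 CPM in shRALY. It did not pass (log2 0.27, SE 0.20; edgeR adjusted p = 0.295), but passed without shControl replicate 2 (edgeR adjusted p = 0.0328 at log2 0.57).

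LAMB3 and LAMA3, chains of the same trimer, took different courses: LAMB3 rose and LAMA3 fell. A ratio of counts per kb of exon within a library does not depend on the scaling between libraries. It can still carry differences between libraries that go with GC content, and their part in the ratios was not tested. Counts are per gene, so the part of different transcripts of a gene in the ratios was not tested either. LAMA3 to LAMB3 was 1.26 and 1.28 in shControl and 0.524 and 0.561 in shRALY, a 2.34-fold drop. For the chains of laminin-511 the groups overlapped: LAMA5 to LAMC1 was 1.29 and 1.59 in shControl and 1.35 and 1.38 in shRALY, and LAMB1 to LAMC1 was 1.15 and 0.930 in shControl and 1.05 and 0.962 in shRALY.

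Short upstream stretches of LAMA3 and LAMB3 are shown because these chains of the same trimer moved in opposite directions, and 1 of ITGA5 because it holds a match to the same motif as LAMB3. They come from RefSeq, GRCh38.p14. For LAMA3 the listed start lies inside the annotated gene, and each stretch of 29 bases is centred on a TGANTCA match (AP-1 motif), at chr18:23872884-23872912 and chr18:23872940-23872968 on the plus strand. For LAMB3 (chr1:209652467-209652525) and ITGA5 (chr12:54419329-54419358), both on the minus strand, capitals mark a match to the NF-kB motif, for LAMB3 the first of 3. The motif searched was GGGRNNYYCC on both strands (R is A or G, Y is C or T, N is any base). LAMB3 matches it as printed, and ITGA5 matches it only when read on the other strand.
LAMA3 first: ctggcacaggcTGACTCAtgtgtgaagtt
LAMA3 second: ccttcctcaccTGAGTCAggcaggcccgg
LAMB3: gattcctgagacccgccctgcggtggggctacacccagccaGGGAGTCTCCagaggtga
ITGA5: cagggacccaGGAATGCCCCcccgccagcc
LAMA3 was the only one of the 26 members with a listed promoter whose window of 250 bases held TGANTCA on either strand, against 5.04% of all 15843 protein-coding promoters. The NF-kB motif occurred in 4 of 11 members that rose (ITGA5, ITGA11, ITGB8 and LAMB3), in 3 of 10 that did not pass and in 10.9% of all promoters. In ITGA5 it overlaps GGAATG, the TEAD motif, which occurred in 1 of the 11 members that rose, in 3 of 10 that did not pass and in 10.1% of all promoters. TATAAA (the TATA box), TGACGTCA (the CRE motif) and the interferon-stimulated response element were found in none of those 11, against 9.23%, 2.32% and 2.72% of all promoters. These letters describe the windows alone, and no binding was measured. Counts per gene do not tell which start of LAMA3 was used.

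**Figure D3:**
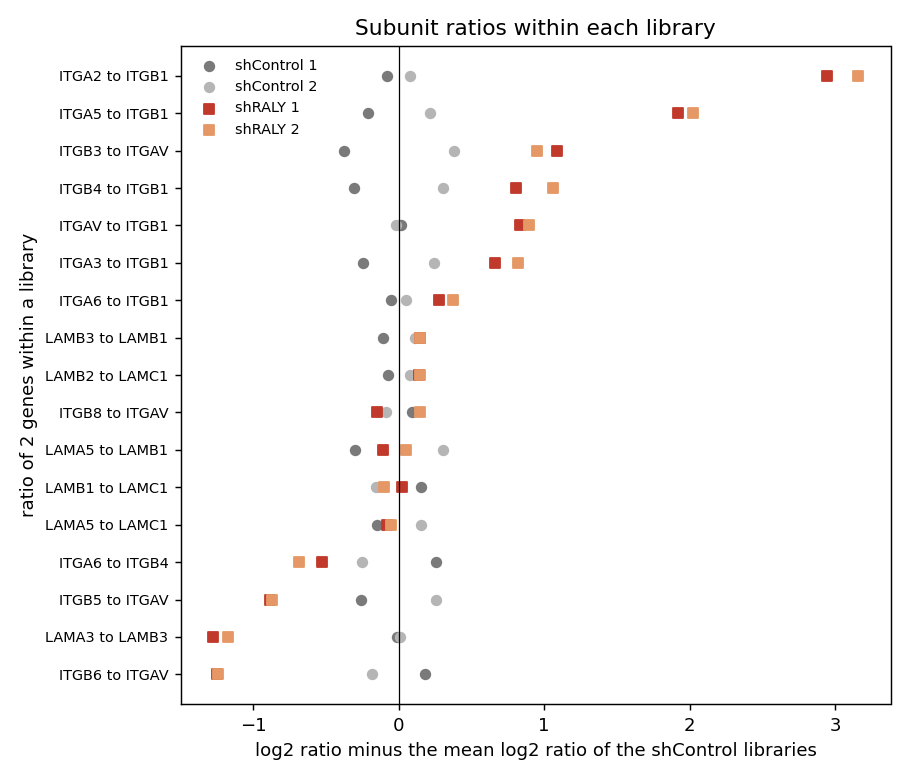
Log2 of ratios of counts per kb of exon in each library, minus the mean log2 ratio of the shControl libraries (x axis), by ratio (y axis); circles are shControl and squares shRALY. ITGA2 to ITGB1 lies farthest to the right and ITGB6 to ITGAV and LAMA3 to LAMB3 farthest to the left. The counts of ITGB3 and ITGB6 are uncertain.

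Among integrin subunits, ratios to ITGB1 were higher in shRALY for the alpha chains computed, ITGA2, ITGA3, ITGA5, ITGA6 and ITGAV. No such ratio was computed for ITGA1, ITGA4 and ITGA7, whose log2 fold changes were -0.17, -0.64 and -0.53. Nor was it for ITGA10 and ITGA11, at log2 0.64 and 0.79. ITGA2 to ITGB1 was 0.0234 and 0.0261 in shControl and 0.190 and 0.221 in shRALY, an 8.27-fold increase. ITGA5 to ITGB1 went from 0.0265 and 0.0356 to 0.116 and 0.125, and ITGAV to ITGB1 from 0.169 and 0.166 to 0.298 and 0.312. Relative to ITGAV, ITGB5 went from 1.17 and 1.67 to 0.755 and 0.763, and ITGB6 from 0.0411 and 0.0320 to 0.0153 and 0.0154. ITGB3 moved the other way relative to ITGAV, from 0.00862 and 0.0146 to 0.0238 and 0.0217, while ITGB8 to ITGAV overlapped between groups. The ratios of ITGB3 and ITGB6 are uncertain, since same-strand genes overlap both, and ITGB6 itself did not pass the test. In 16 of the 20 ratios the groups did not overlap, and the CPM of single genes did not overlap for 69.7% of all genes tested. Many of the ratios share ITGB1, ITGAV or LAMC1, so they are not separate results. With 2 libraries a group, the smallest p that an exact two-sided permutation test can give is 0.333, so the ratios stand as values.

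Summed over each family and scaled by exon length, the integrin alpha, laminin alpha and laminin beta families were higher in both shRALY libraries, and the integrin beta sums overlapped. The integrin alpha genes summed to 173 and 182 CPM per kb in shControl and to 316 and 343 in shRALY. The integrin beta genes summed to 394 and 369 CPM per kb in shControl and to 363 and 371 in shRALY, which overlap. Laminin beta genes went from 70.4 and 73.7 to 113 and 124 CPM per kb, and laminin alpha genes from 61.7 and 86.3 to 96.4 and 115.

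The make-up of the families shifted as well. ITGA2 went from 4.08% ± 0.25 to 16.8% ± 0.76 of the length-scaled alpha subunit counts (SD, n = 2), and ITGA5 from 5.06% ± 0.36 to 9.87% ± 0.11. The share of ITGA6 was 9.87% ± 0.85 in shControl and 6.15% ± 0.09 in shRALY, although its CPM did not pass a test. A share is taken of the family sum, so it can drop while the gene itself does not. The mean of ITGA6 was 17.5 CPM per kb in shControl and 20.3 in shRALY. ITGA3 remained the leading alpha subunit, at 46.2% ± 4.75 and 38.3% ± 0.65, followed by ITGAV at 27.7% ± 4.22 and 25.0% ± 0.73. Among beta subunits, ITGB1 held 76.6% ± 4.32 and 73.5% ± 1.28, and ITGB4 went from 4.61% ± 1.12 to 8.35% ± 0.90. LAMA3 went from 12.9% ± 1.98 to 6.60% ± 0.18 of the alpha chains. The laminin beta chains had similar proportions, with LAMB1 at 63.5% ± 4.40 and 60.8% ± 1.09 and LAMB3 at 10.2% ± 0.40 and 10.9% ± 0.19. Scaling by the longest transcript in place of all exons gave 2.76% and 11.9% for ITGA2 and 55.5% and 48.3% for ITGA3.

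**Figure D4:**
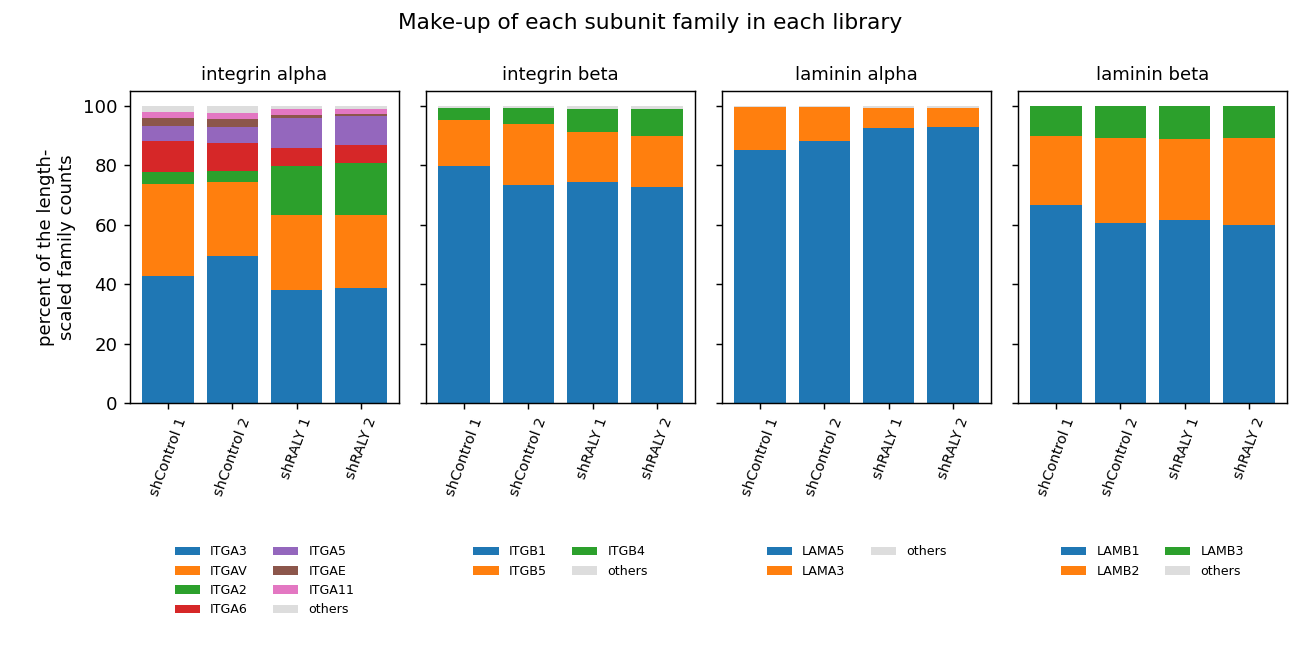
Percent of length-scaled counts (y axis) that each subunit takes of its family in each of the 4 libraries (x axis), for 4 families; genes under 2% in both groups are joined as others. ITGA2 widens from 4.08% to 16.8% of the alpha subunits, LAMA3 narrows from 12.9% to 6.60% of the laminin alpha chains, and the laminin beta chains have similar proportions.

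Genes that work with these receptors and chains were read in 4 lists, whose counts stand beside 20.6% higher and 20.4% lower over all genes tested. Basement membrane partners of laminins rose in 12 of 21 tested genes and fell in 2, with a median log2 fold change of 0.89. NID2, counted among the rises, is uncertain, since an opposite-strand gene covers 30% of its exonic bases. COL4A1, a chain of the collagen IV network, rose 4.69-fold, COL4A5, another chain of it, 4.10-fold, and COL7A1, the anchoring fibril collagen, 3.33-fold (edgeR adjusted p between 2.94e-13 and 2.44e-11). Tetraspanins and other surface partners of integrins rose in 8 of 12 tested genes and fell in 1, with a median of 0.52. PLAUR, the urokinase receptor, rose 8.76-fold, CD82, a tetraspanin, 8.03-fold, and SDC4, a heparan sulfate co-receptor of fibronectin, 4.92-fold (edgeR adjusted p between 4.69e-15 and 9.43e-11). Other integrin ligands rose in 11 of 23 tested genes and fell in 2, with a median of 0.36. ICAM1, the ligand of leukocyte integrins, rose from 2.07 and 1.23 CPM to 25.0 and 33.4 CPM, 17.5-fold, although an opposite-strand gene covers 23.6% of its exonic bases. CTGF and CYR61, matricellular ligands of ITGAV integrins, rose 2.77-fold and 2.62-fold (edgeR adjusted p for the 3 ligands between 1.79e-12 and 6.12e-10).

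Of the 30 genes of the intracellular adhesion complex, 7 rose, 8 fell and 15 did not pass, with a median log2 fold change of -0.04. Both counts are near the shares over all genes tested, 20.6% higher and 20.4% lower. The values of ILK, which did not pass, and ITGB1BP1, which fell, are uncertain, since opposite-strand genes cover 78.5% and 33.1% of their exonic bases. TNS3, a tensin that binds beta subunit tails, fell by 1.12 on the log2 scale, FERMT1, a kindlin of epithelium, by 1.16, and ACTN4, an actin crosslinker, by 0.62 (edgeR adjusted p between 5.08e-08 and 5.98e-05). Other listed members of these 3 families did not all fall. FERMT2, TNS1 and ACTN1 rose 1.51-fold, 1.83-fold and 1.32-fold, TNS2 fell 1.69-fold and FERMT3 did not pass. Epithelial markers rose in 2 of 5 genes: KRT19, a simple epithelial keratin, by 3.27-fold (edgeR adjusted p = 1.35e-11) and CDH1, the ITGAE ligand E-cadherin, by 1.38-fold (edgeR adjusted p = 0.0190). The CDH1 call was lost with DESeq2 (adjusted p = 0.0520), without shControl replicate 1 (edgeR adjusted p = 0.134 at log2 0.25) and also without replicate 2 of shRALY (edgeR adjusted p = 0.253 at log2 0.35). Among basal epithelial markers, KRT15, a keratin, rose by 1.52 on the log2 scale and TP63, a transcription factor of basal cells, fell by 1.17, both under 4 CPM (edgeR adjusted p = 0.000823 and 0.00726). Leaving out shRALY replicate 1 ended the TP63 call (edgeR adjusted p = 0.0743), as did DESeq2 (adjusted p = 0.0777). Fibroblast and smooth muscle markers had 4 tested genes, none past the test; they summed to 22.2 CPM in each shControl library and to 16.1 and 19.2 CPM in the shRALY libraries. COL1A1 and MYH11, the named members, were at log2 -0.32 and -0.62 (edgeR adjusted p = 0.127 and 0.276). The part of these markers in the integrin and laminin changes was not tested.

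**Figure D5:**
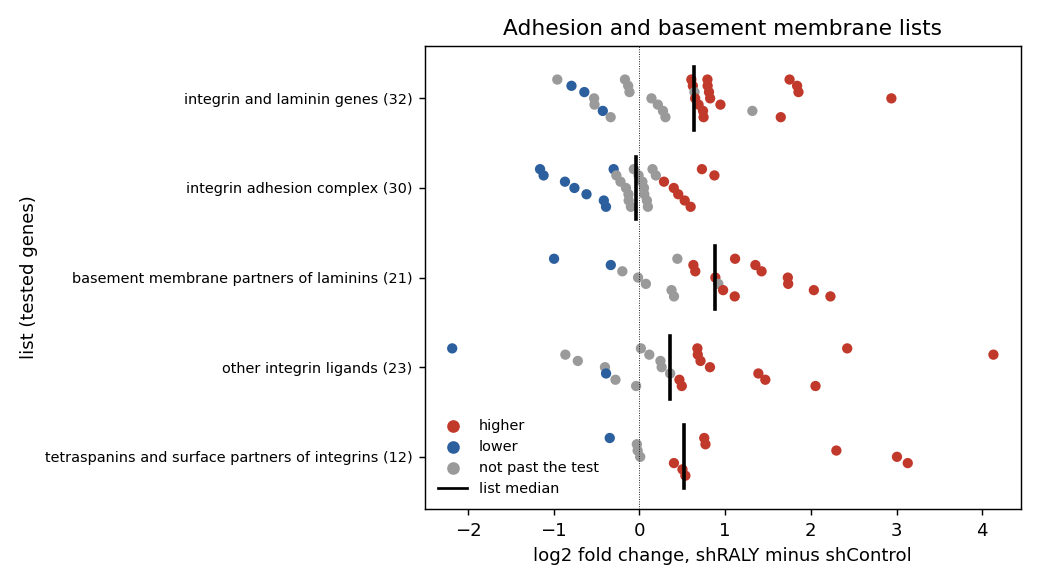
Log2 fold change of shRALY against shControl (x axis) for each tested gene of the integrin and laminin set and of 4 related lists (y axis), coloured by edgeR call, with a black line at each list's median. The median lies at 0.63 for the integrin and laminin genes, at 0.89 for basement membrane partners and at -0.04 for the adhesion complex.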

How the data were processed

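RNA sequencing of poly(A)-selected RNA was deposited as raw counts per Ensembl gene, 1 file for each of the 4 libraries, neither scaled nor pooled by the authors. HISAT2 2.0.5, featureCounts 1.5.0-p3, DESeq2 1.20.0 and hg38 are named, per the submitters' processing notes, which assign them no step. Not given in the sources used here are the strand setting, the annotation release and the handling of reads with several matches. A space in place of a tab separated 1 line of 1 library, which was read like the others. All 58735 identifiers matched GENCODE 29, the source of symbols, coordinates and exon lengths.

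Groups came from the sample titles. Counts were tested in edgeR 4.0.16 (R 4.3.3) over all genes, with filterByExpr (minimum count 10, minimum total 15), TMM scaling, the robust quasi-likelihood F-test with no covariate and Benjamini-Hochberg adjustment at 0.05. The filter kept 15912 genes with 99.8% of counts. Each SE was obtained as the size of the log2 fold change over the root of F. Depth allows a limit of 3 counts for a gene with none, and limits cover counting error only. Genes with more than 20% of exonic bases overlapped on either strand, or of 50-base words shared, were treated as uncertain. They stayed in the counts of each list. The test was checked on simulated counts, drawn with the same relative spread for all genes. A change was put into 200 genes, and 15355 genes were tested there. It recovered 25.4%, 74.6% and 97.0% of changes of 0.5, 1 and 2 on the log2 scale. Of its calls there, 7.75% were false. These figures hold for that small share of changed genes and may differ for the data, where 41% of genes were called.

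The members and all lists were chosen with earlier results of these data known. Members were named, except 1 that is not reported here, and those past the test or at 20 CPM were given by library. From each list the 3 members with the smallest adjusted p were named, or the most abundant to make 2, and some others were named beside them. CCN1 and CCN2 appear as CYR61 and CTGF. RefSeq promoters (250 bases, GRCh38.p14) were listed for 26 of 38 members and searched for 7 motifs. Alternatives were RLE factors, library size alone, DESeq2 1.42.0, other filters, no robust estimation, a replicate block, a length and GC offset, protein-coding genes alone and each library left out.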

Additional observations from a re-analysis of the deposited data

How the results depend on the processing

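Over the alternatives, 12 to 19 members were higher and 2 to 5 lower. Of the 16 rises, 13 kept their call under every alternative run, and ITGB8, LAMA4 and LAMA5 lost it under 1 each. None of the 3 falls kept its call throughout. No member past the test changed direction. With the replicate block 18 members were higher and 4 lower. Libraries with the same number shared little beyond it (correlation of deviations 0.072), so the numbers were not taken as pairs. With DESeq2, 15 were higher and 2 lower. The filter of 10 CPM in 2 libraries left 19 members to test, of which 12 were higher and 3 lower. With each library left out, 14 to 19 were higher and 2 to 5 lower, and the 5 lower came without shControl replicate 1, for which the cause was not tested. Signs turned only for genes that did not pass. With each library left out, log2 ran from -0.27 to 0.71 for ITGB2, from -0.27 to 0.029 for ITGB5, from -0.011 to 0.59 for LAMB4, from -0.12 to 0.42 for ABCA3, from -0.50 to 0.14 for CD14 and from -0.11 to 0.14 for CORO1A. CORO1A was also at -0.047 with library size alone and -0.0039 with the length and GC offset. ABCA3 passed without shControl replicate 2 and with the offset. With 2 libraries a group, changes of moderate size could be missed, including those of genes under 20 CPM.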
